A study of Homo sapiens with 6 samples.

Results

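Aldehyde dehydrogenases were examined in parental PC9 cells and in the persister (PS) cells derived from them. The 10 genes described here, ALDH1A1, ALDH1A3, ALDH1B1, ALDH2, ALDH3A1, ALDH3A2, ALDH3B1, ALDH7A1, ALDH9A1 and ALDH18A1, were chosen by symbol from the 36459 gene symbols of the count table, and all 10 were found. PC9 is a line of human lung adenocarcinoma that depends on a mutant EGFR kinase, and PS cells are those that were still present after 6 days in 15 µM erlotinib, an EGFR inhibitor. There were 3 libraries of each condition, both from this 1 cell line. The 3 PS libraries were pooled from 9 separate cultures and the PC9 libraries came from 3 cultures.

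Aldehyde dehydrogenases oxidize aldehydes to carboxylic acids with NAD or NADP. Their substrates include retinal, acetaldehyde, fatty aldehydes and the reactive aldehydes that are left when membrane lipids are peroxidized, and some members serve amino acid, choline or folate metabolism instead. Several of them, ALDH1A1 and ALDH1A3 above all, are measured together in tumour cells as "ALDH activity", a label that has been tied to stem-like and drug-tolerant cells, and ALDH3A1 is abundant in cornea, stomach and many lung carcinomas.

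In PS cells the family changed its leading member. ALDH3A1 fell 5.68-fold and ALDH1A3 rose 1.91-fold, so that ALDH1A3 took the place of ALDH3A1 as the aldehyde dehydrogenase with the highest level per transcript length. Beside ALDH3A1, the largest falls among the 10 members were those of ALDH1A1 (17.4-fold, from a low level) and ALDH3B1 (2.60-fold). ALDH1B1 and ALDH2, the mitochondrial acetaldehyde-oxidizing enzymes, rose by less than 2-fold, and the difference of ALDH18A1 did not pass the test.

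Of the 10 members, all of which passed the expression filter, 3 were higher and 6 lower in PS cells at an adjusted p-value under 0.01, and 1 did not pass. This is to be read against the whole table, in which 56.8% of the 14626 genes tested passed the same limit, 28.7% of the genes tested being higher and 28.1% lower in PS cells. The median log2 fold change was -0.34 over the members and -0.0061 over all genes tested. The PC9 and PS libraries did not overlap for 9 members, while this held for 71.3% of all genes tested. A change past the limit of more than 2-fold was seen for 3 members (ALDH1A1, ALDH3A1 and ALDH3B1), and for 11.6% of all genes tested. Tests were made with edgeR's quasi-likelihood method with Benjamini-Hochberg adjustment over all genes. The gene-level log2 changes of the 10 members are given below with their standard error. For 3 libraries per condition, 0.1 is the smallest p-value an exact permutation test can reach for one gene.

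Total gene counts were between 29476725 and 34893782 per library, and replicates were more different than counting noise alone allows, so all 6 entered separately. Levels of one gene across libraries are given as CPM, counts scaled to a common library total, after TMM normalization, which scales each library by a factor estimated from most genes. The epithelial markers EPCAM, CDH1, KRT7, KRT8, KRT18 and KRT19, which a carcinoma line should carry, summed to 7519 to 8051 CPM in PC9 and to 5936 to 6298 CPM in PS libraries. They did not move together. KRT7 (mean 1983 CPM in PC9, 2725 CPM in PS libraries) and CDH1 (207 and 314 CPM) were higher in PS cells past the limit. EPCAM, KRT8, KRT18 and KRT19 were lower past it. Marker lists of fibroblasts, leukocytes, endothelium and a prostate line did not exceed 30.8 CPM in any library. The sum of the 6 fibroblast genes was 10.4 to 11.0 CPM in PC9 against 27.4 to 30.8 CPM in PS libraries, where COL1A1 alone was at 10.2 ± 0.340 and 28.3 ± 1.79 CPM (SD, n = 3) and COL3A1 had 0 counts in every library. The sum of the 5 leukocyte genes was 2.12 to 2.50 and 10.2 to 11.8 CPM, where ITGAM was at 1.20 ± 0.263 and 10.7 ± 0.764 CPM and CD3E had 0 counts. The sum of the 4 endothelial genes was 8.19 to 8.88 CPM in PC9 against 3.60 to 4.04 CPM in PS libraries, and that of the 4 prostate-line genes 10.9 to 11.2 against 20.5 to 21.3 CPM, with KLK3 at 0 counts. The part of these markers in the results below was not tested. In such bulk libraries, fewer cells that express a gene and less of its RNA per cell cannot be told apart.

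The promoters of the member with the largest rise and of the one with the largest fall are shown, since these members mark both ends of the change. Each is the RefSeq window of 300 bases on GRCh38.p14, from 250 bases before the start site to 50 after it, written in the direction of the gene. Capitals mark matches to GCGTG, the core that the aryl hydrocarbon receptor binds, on either strand.
ALDH1A3 (chr15:100879581-100879880, plus strand): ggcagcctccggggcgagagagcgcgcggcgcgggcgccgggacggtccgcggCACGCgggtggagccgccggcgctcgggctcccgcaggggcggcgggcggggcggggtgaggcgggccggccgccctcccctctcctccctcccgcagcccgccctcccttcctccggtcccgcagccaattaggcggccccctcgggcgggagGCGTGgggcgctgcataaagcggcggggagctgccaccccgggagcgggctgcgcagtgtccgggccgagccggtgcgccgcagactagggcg
ALDH1A1 (chr9:72953004-72953303, minus strand): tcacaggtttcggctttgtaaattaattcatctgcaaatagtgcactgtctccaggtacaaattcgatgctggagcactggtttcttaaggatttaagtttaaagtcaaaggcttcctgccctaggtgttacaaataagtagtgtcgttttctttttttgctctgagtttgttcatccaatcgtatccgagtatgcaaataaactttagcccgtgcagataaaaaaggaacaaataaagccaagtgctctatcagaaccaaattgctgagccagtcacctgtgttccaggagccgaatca
In the ALDH1A3 window 81.7% of the bases were G or C, in the ALDH1A1 window 40.3%, and the median over all promoters of the table was 58.7%. GCGTG stood in the ALDH1A3 window at 197 bases (minus strand) and 43 bases (plus strand) before the start site. It was not among the letters of the ALDH1A1 window, and 36.5% of all 35116 promoters of this length held it. Such matches are a description of the letters and not evidence of binding.

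The table of promoters held 10 windows for 8 of the members, with ALDH3A2 and ALDH3B1 having more than 1, and none for ALDH2 and ALDH3A1. GCGTG was found in 2 of the 10 windows, that of ALDH1A3 and one of ALDH3A2. The antioxidant response core TGACNNNGC, which NRF2 binds, the C/EBP-ATF element TGATGNAA and the nuclear receptor half-site AGGTCA were found in 0 of the 10, searched on both strands. Over all promoters they stood in 13.3%, 3.62% and 13.8%. Since GCGTG was the sole motif found, none overlapped another.

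ALDH3A1 (ENSG00000108602, chromosome 17 of GRCh38, 19737984 to 19748943, minus strand) encodes a cytosolic enzyme for aromatic and medium-chain aldehydes, including those from lipid peroxidation. It stood at 1587, 1752 and 1645 CPM in PC9 replicates 1, 2 and 3, and at 281, 295 and 302 CPM in PS replicates 1, 2 and 3, the order kept for all genes. Every PS library was far below every PC9 library. The means were 1661 ± 83.8 and 293 ± 10.7 CPM (SD, n = 3), a log2 difference of -2.51 (SE 0.0466, edgeR adjusted p = 2.17e-11), and ALDH3A1 ranked 20 by p-value among all genes tested.

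ALDH3A2 (ENSG00000072210, 19648136 to 19685760, plus strand) lies beside ALDH3A1 on chromosome 17 and encodes the fatty aldehyde dehydrogenase of the endoplasmic reticulum and peroxisomes. Its levels were 355, 341 and 354 CPM in PC9 against 260, 250 and 257 CPM in PS libraries. The groups did not overlap, and the fall was modest, with means of 350 ± 7.40 and 256 ± 4.91 CPM (SD, n = 3) and a log2 change of -0.45 (SE 0.0346, edgeR adjusted p = 6.95e-07). The locus overlaps SLC47A2 on the opposite strand, which had between 590 and 692 counts in every library, against 7579 counts or more for ALDH3A2.

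ALDH3B1 (ENSG00000006534, chromosome 11, 68008578 to 68029282, plus strand) encodes a membrane-anchored enzyme that oxidizes medium- and long-chain fatty aldehydes. It had 188, 220 and 207 CPM in PC9 against 80.0, 77.6 and 79.1 CPM in PS libraries. All 3 PS libraries were below all 3 PC9 libraries. The PC9 libraries, from single cultures, varied more among themselves than the PS libraries, which were pools of cultures, so these spreads are not of like units. The means of ALDH3B1 were 205 ± 15.7 and 78.9 ± 1.20 CPM (SD, n = 3), and the log2 change was -1.38 (SE 0.0540, edgeR adjusted p = 3.97e-09).

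ALDH1A3 (ENSG00000184254, chromosome 15, 100877714 to 100916626, plus strand) encodes a cytosolic retinal dehydrogenase, which makes retinoic acid. It had 557, 566 and 566 CPM in PC9 against 1081, 1071 and 1077 CPM in PS libraries. The replicates lay close together in both conditions and the PS libraries were the higher ones throughout. The means were 563 ± 5.35 and 1076 ± 5.07 CPM (SD, n = 3), and the log2 change was 0.94 (SE 0.0312, edgeR adjusted p = 1.15e-09). GENCODE places the antisense gene ALDH1A3-AS1 over this locus, and it has no row in the gene table under that symbol.

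ALDH1A1 (ENSG00000165092, chromosome 9, 72900671 to 73080442, minus strand) encodes the other retinal dehydrogenase among the members and is the usual reference for ALDH activity in stem-like cells. It had few reads, with 296, 317 and 348 counts in PC9 and 13, 15 and 23 counts in PS libraries, which is 8.60, 9.31 and 10.3 CPM against 0.445, 0.476 and 0.673 CPM. The PS libraries were thus close to the lower end of what can be counted, and all were below the PC9 libraries. The log2 change was -4.12 (SE 0.159, edgeR adjusted p = 3.50e-09), the largest among the members.

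ALDH1A1 and ALDH1A3 catalyse the same reaction and went in opposite directions, each past the limit. In PC9 libraries ALDH1A3 already had the higher level of the pair per transcript length, at 389.6 ± 16.5 against 9.57 ± 0.863 (SD, n = 3), and in PS libraries it stood at 767 ± 17.5 against 0.547 ± 0.103.

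ALDH1B1 (ENSG00000137124, chromosome 9, 38392702 to 38398661, plus strand), a mitochondrial enzyme for acetaldehyde and other short aldehydes, had 26.1, 28.6 and 29.4 CPM in PC9 against 47.3, 47.2 and 46.6 CPM in PS libraries. Every PS library was above every PC9 library. Its means were 28.0 ± 1.73 and 47.1 ± 0.376 CPM (SD, n = 3), and the log2 change was 0.75 (SE 0.0522, edgeR adjusted p = 3.41e-07).

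ALDH2 (ENSG00000111275, chromosome 12, 111766887 to 111817532, plus strand) is the main acetaldehyde dehydrogenase of mitochondria and also oxidizes 4-hydroxynonenal, a product of lipid peroxidation. It had 36.6, 38.6 and 35.7 CPM in PC9 against 44.9, 47.6 and 46.2 CPM in PS libraries. The groups were apart by a narrow margin. The log2 change of ALDH2 was 0.32 (SE 0.0480, edgeR adjusted p = 0.000128). GENCODE also places an unnamed protein-coding gene over this locus on the same strand, for which no count was used here.

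ALDH7A1 (ENSG00000164904, chromosome 5, 126531200 to 126595362, minus strand), antiquitin, acts in lysine breakdown and can make betaine from betaine aldehyde. It had 130.1, 130.2 and 128 CPM in PC9 against 87.5, 86.7 and 88.2 CPM in PS libraries. The PS libraries were lower with little spread in either condition. The log2 change was -0.57 (SE 0.0350, edgeR adjusted p = 1.30e-07).

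ALDH9A1 (ENSG00000143149, chromosome 1, 165662216 to 165698562, minus strand) oxidizes aminoaldehydes, among them the precursor of carnitine. It had 67.6, 67.1 and 68.1 CPM in PC9 against 59.4, 55.4 and 58.2 CPM in PS libraries. This was the smallest fall past the limit among the members, a log2 change of -0.23 (SE 0.0416, edgeR adjusted p = 0.000545).

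ALDH18A1 (ENSG00000059573, chromosome 10, 95605941 to 95656711, minus strand) makes the precursor of proline and ornithine from glutamate, and runs as a reductase and kinase rather than as an aldehyde-oxidizing enzyme. It had 57.4, 59.0 and 55.5 CPM in PC9 against 58.3, 57.9 and 59.6 CPM in PS libraries. The groups overlapped. The log2 change of ALDH18A1 was 0.032 (SE 0.0416, edgeR adjusted p = 0.511), with a 95% interval from -0.060 to 0.12, and its sign turned with upper-quartile normalization and with scaling to library size only.

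**Figure D1:**
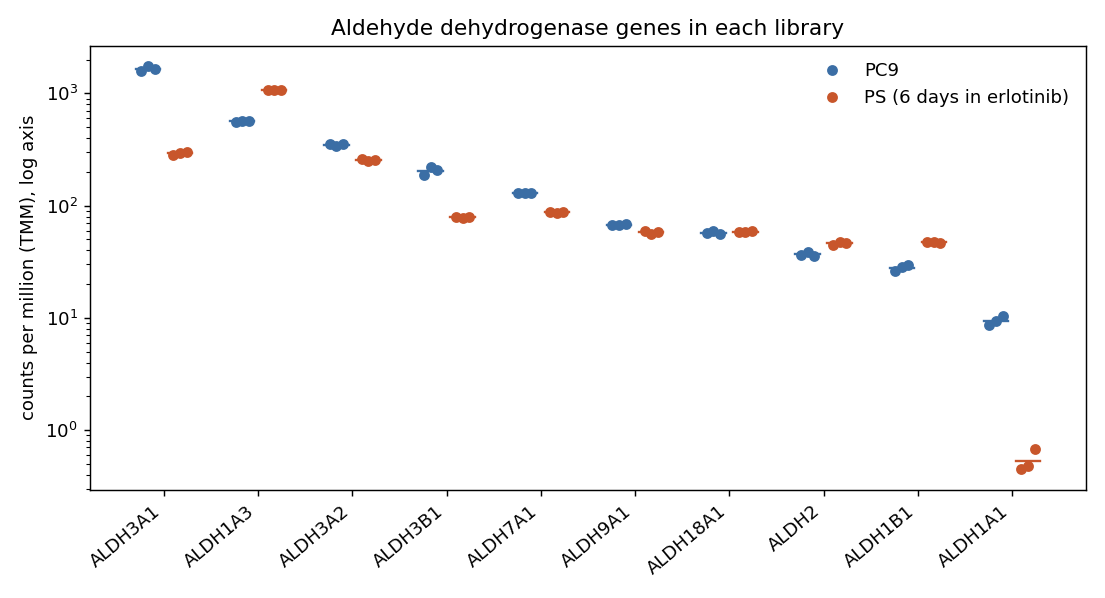
Level of the 10 aldehyde dehydrogenase genes in each library, in TMM-normalized CPM on a log axis, ordered by the PC9 mean. Blue points are the 3 PC9 libraries, orange points the 3 PS libraries and short lines their means. The PS points of ALDH1A3, ALDH1B1 and ALDH2 lie above the PC9 points, those of 6 genes lie below, and those of ALDH18A1 overlap.

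To compare genes with each other, transcript counts were divided by annotated transcript length and scaled to the same total in each library, which gives the unit TPM (here called the per-length level). By this measure the 10 members summed to 2936, 3247 and 3074 in PC9 and to 1649, 1585 and 1615 in PS libraries, so the family sum was lower in every PS library. The drop in the sum rested on ALDH3A1, since the other 9 members together stood at 1065 ± 34.1 in PC9 and 1254 ± 33.2 in PS libraries (SD, n = 3). Without ALDH1A3 as well, the remaining 8 stood at 675 ± 17.7 in PC9 and 487 ± 16.7 in PS libraries.

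ALDH3A1 held 65.1%, 66.4% and 65.0% of the member sum in PC9 libraries and 21.7%, 22.7% and 22.9% in PS libraries. ALDH1A3 held 12.6%, 12.4% and 12.9% in PC9 and 47.7%, 47.7% and 46.9% in PS libraries. The order of these genes was thus turned in each of the 6 libraries by condition, with ALDH3A1 at 5.15, 5.36 and 5.04 times the per-length level of ALDH1A3 in PC9, and ALDH1A3 at 2.20, 2.10 and 2.05 times that of ALDH3A1 in PS libraries. These shares were examined after the values had been seen and carry no test.

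By mean per-length level the order in PC9 was ALDH3A1 (2021 ± 125), ALDH1A3 (389.6 ± 16.5), ALDH3A2 (240.5 ± 2.73), ALDH7A1 (142 ± 0.791), ALDH3B1 (142 ± 13.4), ALDH9A1 (54.4 ± 1.01), ALDH18A1 (35.9 ± 1.76), ALDH2 (32.8 ± 2.12), ALDH1B1 (18.1 ± 1.23) and ALDH1A1 (9.57 ± 0.863; SD, n = 3 throughout). ALDH7A1 and ALDH3B1 did not differ beyond their spread. The ranges of ALDH18A1 and ALDH2 over the PC9 libraries overlapped, and ALDH18A1 was the higher one within each library. In PS libraries the order was ALDH1A3 (767 ± 17.5), ALDH3A1 (362 ± 6.35), ALDH3A2 (177 ± 7.63), ALDH7A1 (93.4 ± 2.41), ALDH3B1 (56.5 ± 2.52), ALDH9A1 (47.9 ± 2.81), ALDH2 (40.4 ± 0.886), ALDH18A1 (39.0 ± 4.25), ALDH1B1 (32.0 ± 1.11) and ALDH1A1. Here ALDH2 and ALDH18A1 lay within their spread of each other. Among the 36074 gene symbols that have a per-length level, ALDH3A1 ranked 73 in PC9 and 389 in PS cells, and ALDH1A3 ranked 316 and 174.

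**Figure D2:**
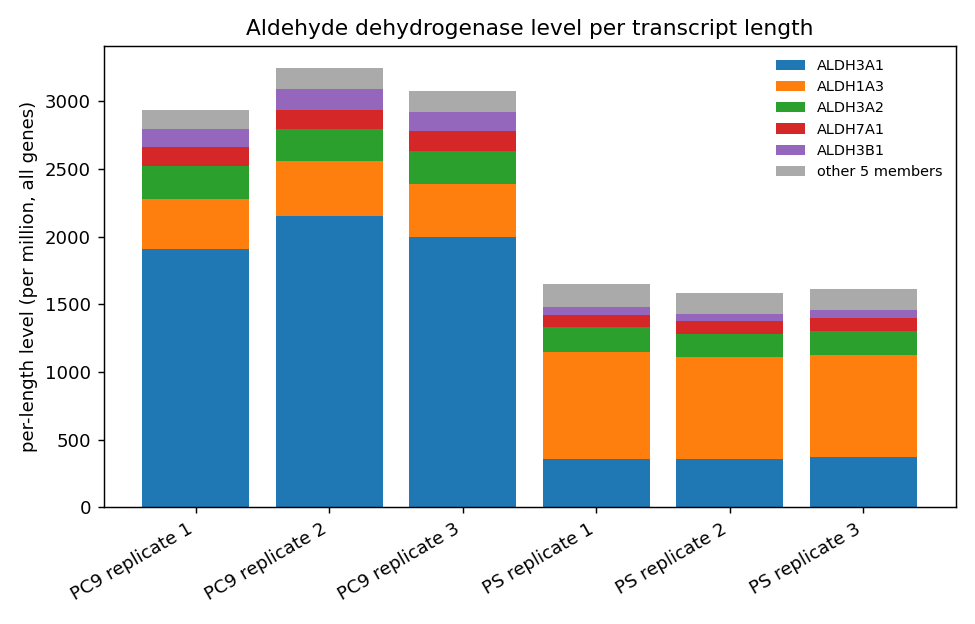
Stacked per-length level of the 10 aldehyde dehydrogenase genes in each library, in TPM. Each bar is 1 library, and ALDH3A1 (blue) fills most of the PC9 bars while ALDH1A3 (orange) is the largest block of the PS bars.

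The family has 9 further human genes, which were listed in full and not picked for their change. All 9 had a row in the table and 8 passed the expression filter. Of these 2 were higher and 4 lower past the limit, with a median log2 fold change of -0.42, and 4 passed with a change of more than 2-fold. Over the whole family of 19 genes, 18 were tested, 5 were higher, 10 lower and 3 did not pass. Over all genes tested, 56.8% passed, 28.7% as higher and 28.1% as lower, and 11.6% passed with more than 2-fold.

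Both folate enzymes of the family changed, in opposite directions. ALDH1L1, the cytosolic 10-formyltetrahydrofolate dehydrogenase, had 49.1, 50.4 and 52.7 CPM in PC9 against 17.2, 18.2 and 19.6 CPM in PS libraries (log2 change -1.47, standard error 0.0574, edgeR adjusted p = 3.96e-09). ALDH1L2, its mitochondrial counterpart, had 12.8, 11.2 and 10.9 CPM in PC9 against 33.6, 33.8 and 34.1 CPM in PS libraries (log2 change 1.54, standard error 0.0645, edgeR adjusted p = 6.49e-09). Neither pair of groups overlapped, and the rise of ALDH1L2 was the largest of the 19 genes.

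The enzymes of amino acid breakdown did not move together. ALDH4A1, which completes proline breakdown to glutamate, rose from 19.3 ± 1.51 to 25.3 ± 0.381 CPM (SD, n = 3, log2 fold change 0.39, edgeR adjusted p = 0.000233). ALDH5A1, which oxidizes succinic semialdehyde from GABA, fell from 52.9 ± 0.318 to 34.1 ± 0.448 CPM (log2 change -0.63, edgeR adjusted p = 1.92e-07), and ALDH6A1, of valine and pyrimidine breakdown, fell from 84.1 ± 1.52 to 41.8 ± 1.87 CPM (log2 change -1.01, edgeR adjusted p = 1.04e-08). ALDH3B2, the close paralog of ALDH3B1 on chromosome 11, fell from 15.3 ± 0.572 to 4.10 ± 0.502 CPM (log2 change -1.90, edgeR adjusted p = 2.01e-08). Reads shared by these paralogs could have been divided between them by Kallisto.

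The remaining genes of the family gave no call. ALDH1A2, the third retinal dehydrogenase, was scarce, at 0.792 ± 0.144 CPM in PC9 against 0.747 ± 0.0380 CPM in PS libraries (SD, n = 3, log2 fold change -0.084, edgeR adjusted p = 0.768). ALDH16A1, a member that lacks the catalytic cysteine in mammals, had 24.9, 33.5 and 33.7 CPM in PC9 against 26.2, 24.5 and 29 CPM in PS libraries (log2 change -0.21, edgeR adjusted p = 0.112). PC9 replicate 1 was the low library there, and without it the log2 fold change was -0.34 with an edgeR adjusted p of 0.000588. ALDH8A1 was not tested, with 3, 5 and 4 counts in PC9 and 0, 0 and 1 in PS libraries.

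**Figure D3:**
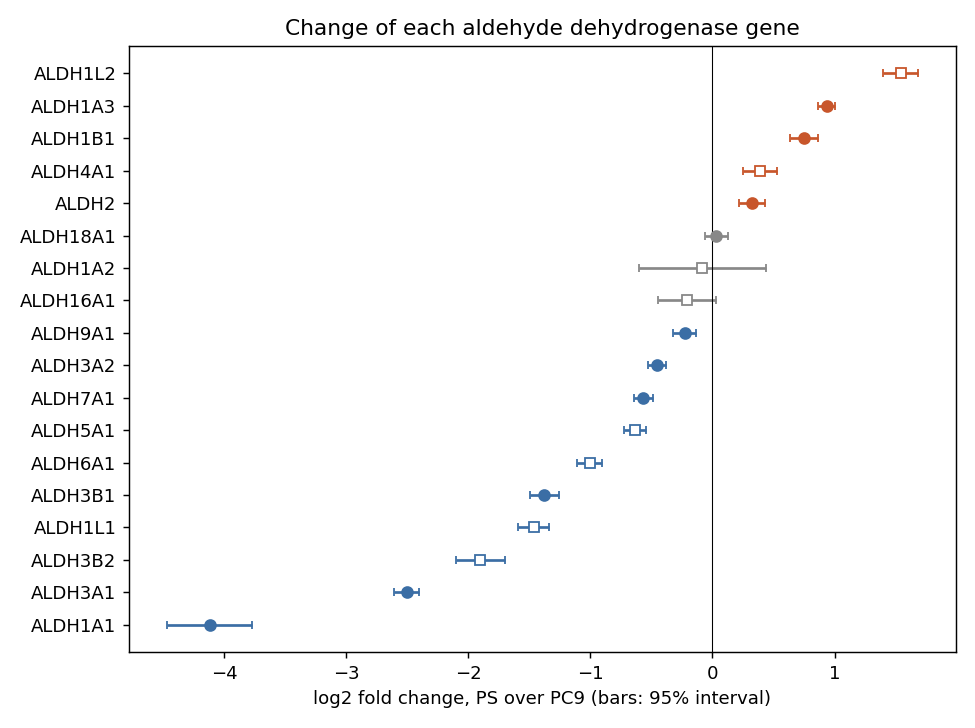
Log2 fold change of PS over PC9 with its 95% interval for the 18 tested aldehyde dehydrogenase genes, sorted by size. Filled circles are the 10 members, open squares the other genes of the family, orange marks genes higher and blue genes lower at an adjusted p under 0.01, and grey the 3 that did not pass. The values run from -4.12 for ALDH1A1 to 1.54 for ALDH1L2.

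Grouped by the compartment in which each enzyme is usually placed, the 7 mitochondrial genes (ALDH1B1, ALDH2, ALDH4A1, ALDH5A1, ALDH6A1, ALDH18A1 and ALDH1L2) gave 4 higher and 2 lower calls. The 6 cytosolic genes tested (ALDH1A1, ALDH1A2, ALDH1A3, ALDH1L1, ALDH3A1 and ALDH9A1) gave 1 higher, ALDH1A3, and 4 lower. The 3 genes of membrane-bound enzymes (ALDH3A2, ALDH3B1 and ALDH3B2) were all lower. Beside these small counts stand the 28.7% higher and 28.1% lower of all genes tested. ALDH7A1, found in both mitochondria and cytosol, and ALDH16A1 were left out of this grouping. It was made from general knowledge after the values had been seen, and carries no test.

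Kallisto also gave a count for each transcript, and these were tested in the same way over 54499 transcripts. Of the members' 63 tested transcripts 3 were higher, 11 lower and 49 did not pass, while 7.80% of all transcripts tested passed the limit. The transcript counts divide reads among overlapping isoforms without the error of that division, so they are less certain than the gene counts. Transcripts holding at least 10% of a member's transcript counts in either condition are described here.

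For 5 members a single transcript held nearly all counts. ALDH1A3-201 (512 residues, 13 exons) held 91.1% to 92.2% of the gene's transcript counts in PC9 and 91.2% to 93.8% in PS libraries, with a log2 change of 0.93 (edgeR adjusted p = 2.81e-05). ALDH3B1-201 (468 residues) held 94.6% to 95.8% over the 6 libraries and ALDH9A1-201 (518 residues) 99.3% to 99.7%. ALDH1B1-201 (517 residues), made from just 2 exons, held 98.8% to 99.6%, with a log2 change of 0.72 (edgeR adjusted p = 0.00116). ALDH1A1-201 (501 residues) held 90.2% to 94.6% in PC9 and 80% to 100% of the few counts in PS libraries.

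ALDH3A1 was spread over more transcripts, and each of the 3 main ones fell. ALDH3A1-201 (453 residues) held 64.4%, 65.4% and 64.5% in PC9 and 64.8%, 66.6% and 64.4% in PS libraries, with a log2 change of -2.52 (edgeR adjusted p = 2.05e-05). ALDH3A1-212 (380 residues) held 25.9%, 24.98% and 26.5% in PC9 and 21.5%, 21.3% and 21.9% in PS libraries, a log2 change of -2.79 (edgeR adjusted p = 1.07e-05). ALDH3A1-207, annotated as a target of nonsense-mediated decay, held 7.47%, 7.69% and 7.24% in PC9 and 11.8%, 10.6% and 12.4% in PS libraries, and fell least, with a log2 change of -1.89 (edgeR adjusted p = 0.000146). The shares of the latter pair of transcripts did not overlap between conditions, one being lower and the other higher in PS cells.

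Whether the mix of transcripts itself differed was tested with edgeR's diffSpliceDGE, with a Simes p-value per gene over 10542 genes, of which 1.88% passed the limit. Of the 9 members with more than 1 tested transcript, 0 passed. ALDH3A1 was just short of the limit, at an adjusted p of 0.0114 and an unadjusted Simes p of 0.000219, and was the sole member with an unadjusted p below 0.05 in this edgeR test.

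ALDH3A2 is made in forms that differ at the end of the protein. ALDH3A2-219 (485 residues) held 56.7%, 55.0% and 56.7% in PC9 and 60.5%, 62.8% and 58.1% in PS libraries, changing by -0.37 on the log2 scale (edgeR adjusted p = 0.00229). ALDH3A2-202 (508 residues) held 11.9%, 11.9% and 11.6% in PC9 and 12.4%, 9.82% and 14.4% in PS libraries, and did not pass (log2 change -0.43, edgeR adjusted p = 0.112). The PS libraries spread wider than the PC9 libraries for this transcript.

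For ALDH2, ALDH2-202 (470 residues) and ALDH2-201 (517 residues) held 44.4% ± 3.20 and 33.03% ± 1.358 of the counts in PC9, and 47.9% ± 2.49 and 37.05% ± 0.8005 in PS libraries (SD, n = 3). Neither passed the limit alone, with log2 fold changes of 0.41 and 0.46 (edgeR adjusted p = 0.0230 and 0.0181). ALDH2-203, annotated as a target of nonsense-mediated decay, held 24.4%, 18.9% and 19% in PC9 and 12.7%, 17.3% and 11.6% in PS libraries. Its share was lower in each PS library, and the transcript test gave -0.28 on the log2 scale (edgeR adjusted p = 0.469).

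ALDH7A1-234 (521 residues) fell, with a log2 change of -0.77 (edgeR adjusted p = 0.000358), from 55.4% ± 2.88 to 48.9% ± 0.534 of the gene's counts (SD, n = 3). ALDH7A1-201, the 539-residue form, had a log2 change of -0.22 and did not pass (edgeR adjusted p = 0.268). ALDH7A1-232 (536 residues) had 270, 439 and 565 counts in PC9, and 10, 455 and 474 in PS libraries. PS replicate 1 stood apart for this transcript while its gene count of ALDH7A1 did not, so the values of single ALDH7A1 isoforms are to be read with that in view. ALDH18A1-202 (795 residues) held 77.9% to 88.8% over the 6 libraries and the 793-residue ALDH18A1-201 held 8.99% to 15.6%, and neither passed the test (edgeR adjusted p = 0.858 and 0.687).

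**Figure D4:**
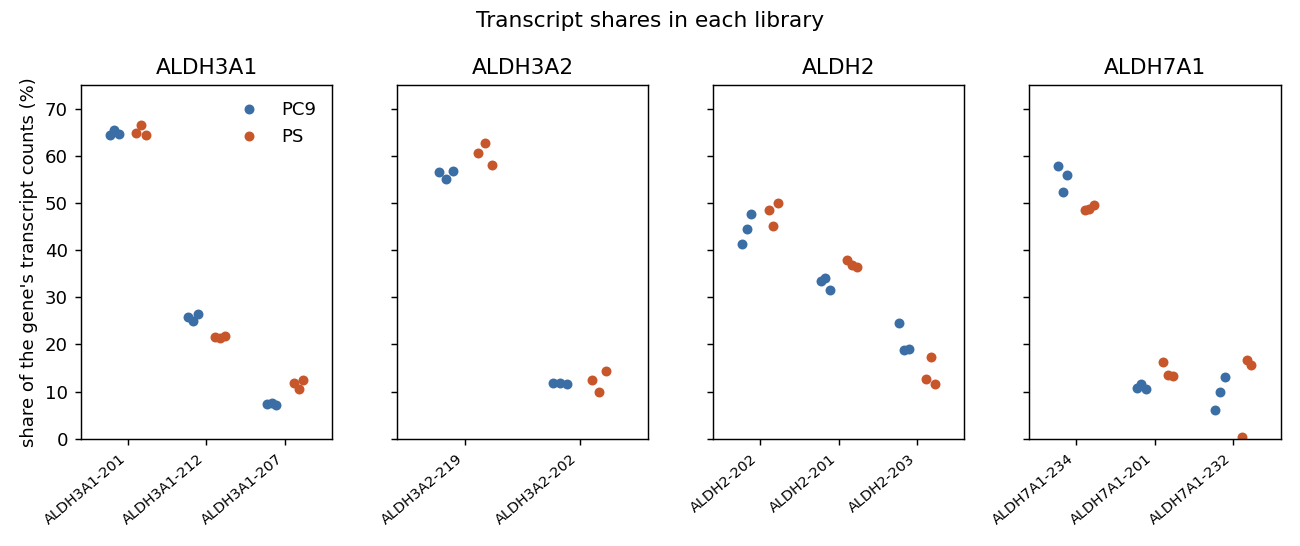
Share of each gene's transcript counts, in percent, held by the main transcripts of ALDH3A1, ALDH3A2, ALDH2 and ALDH7A1, with 1 point per library (PC9 blue, PS orange). ALDH3A1-207 lies near 7% in PC9 and 11% to 12% in PS libraries, and ALDH7A1-232 is near 0 in 1 PS library.

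The neighbours of the members in metabolism were taken from 4 lists. In retinoid handling, the enzymes, carriers and receptors on either side of the ALDH1A step, 22 of 26 genes were tested, 3 were higher and 10 lower, which is 59.1% called and close to the share over all genes, with a median log2 fold change of -0.31. CRABP2, which carries retinoic acid to its receptor, fell from 137 ± 1.64 to 37.7 ± 1.43 CPM (SD, n = 3, log2 fold change -1.86, edgeR adjusted p = 7.78e-11). STRA6, the retinol uptake receptor, fell from 34.5 ± 1.85 to 17.2 ± 0.986 CPM (-1.004, adjusted p = 1.25e-07), and RARB, a retinoic acid receptor whose own gene responds to retinoic acid, from 2.09 ± 0.454 to 0.782 ± 0.272 CPM (-1.43, adjusted p = 0.000686). RDH13, a mitochondrial retinol dehydrogenase, rose from 17.4 ± 0.722 to 32.2 ± 0.423 CPM (0.89, adjusted p = 8.06e-08) and CYP26B1, which degrades retinoic acid, from 0.626 ± 0.166 to 1.54 ± 0.152 CPM (1.299, adjusted p = 0.000472). RBP4, the retinol carrier of plasma, had 2, 4 and 6 counts in PC9 and 27, 24 and 35 in PS libraries.

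Among the other aldehyde-clearing enzymes, the alcohol dehydrogenases, carbonyl and aldo-keto reductases and related genes, 16 of 22 genes were tested, 2 were higher and 13 lower, with a median log2 fold change of -0.57. This is 93.8% called, against 56.8% of all genes tested, of which 28.1% were lower. AKR1B10, which reduces retinal and lipid aldehydes, fell from 469 ± 1.88 to 86.3 ± 0.523 CPM (SD, n = 3, log2 fold change -2.44, edgeR adjusted p = 4.12e-12). CBR3, a carbonyl reductase, fell from 15.1 ± 0.307 to 5.92 ± 0.564 CPM (-1.35, adjusted p = 1.06e-07), and ADH1C had 22, 18 and 14 counts in PC9 and 1, 0 and 2 in PS libraries. The genes that rose were AOX1, aldehyde oxidase, from 12.4 ± 0.533 to 19.9 ± 0.915 CPM (0.68, adjusted p = 3.42e-06) and AKR1B1, aldose reductase, from 650 ± 28.3 to 757 ± 27.2 CPM (0.22, adjusted p = 0.000750). Several of these genes have near-identical copies between which reads could have been divided.

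Of 16 genes whose reactions make aldehydes or feed the members, 14 were tested, 2 were higher and 6 lower, which is 57.1% and again close to the share over all genes. SGPL1, which splits sphingosine phosphate and gives the fatty aldehyde that ALDH3A2 oxidizes, rose from 117 ± 3.09 to 158 ± 1.40 CPM (SD, n = 3, log2 fold change 0.43, edgeR adjusted p = 1.51e-06), and SMOX, spermine oxidase, from 21.2 ± 1.44 to 26.0 ± 0.318 CPM (0.29, adjusted p = 0.00106). SAT1, which acetylates polyamines for oxidation, fell from 44.5 ± 1.13 to 18.9 ± 1.14 CPM (-1.23, adjusted p = 1.00e-08). AOC1, diamine oxidase, fell from 6.52 ± 1.18 to 4.22 ± 0.187 CPM (-0.63, adjusted p = 0.00161), and AASS, the start of the lysine pathway that ALDH7A1 serves, from 8.77 ± 0.350 to 5.93 ± 0.884 CPM (-0.57, adjusted p = 0.000676).

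In the short list of proline and glutamate enzymes around ALDH18A1, 4 of 6 genes were tested and 0 passed the limit in the edgeR test. In that test 2 had an unadjusted p below 0.05, 1 being higher and 1 lower in PS cells. PYCR1, which makes proline and was chosen after its value was seen, had 111 ± 12.3 CPM in PC9 against 126 ± 5.35 CPM in PS libraries (SD, n = 3, edgeR adjusted p = 0.0432). The PC9 and PS libraries overlapped for PYCR1. In this list 1 gene passed as lower with DESeq2, upper-quartile normalization, scaling to library size only, and without PC9 replicate 1. Without PC9 replicate 2, 1 gene passed as higher.

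**Figure D5:**
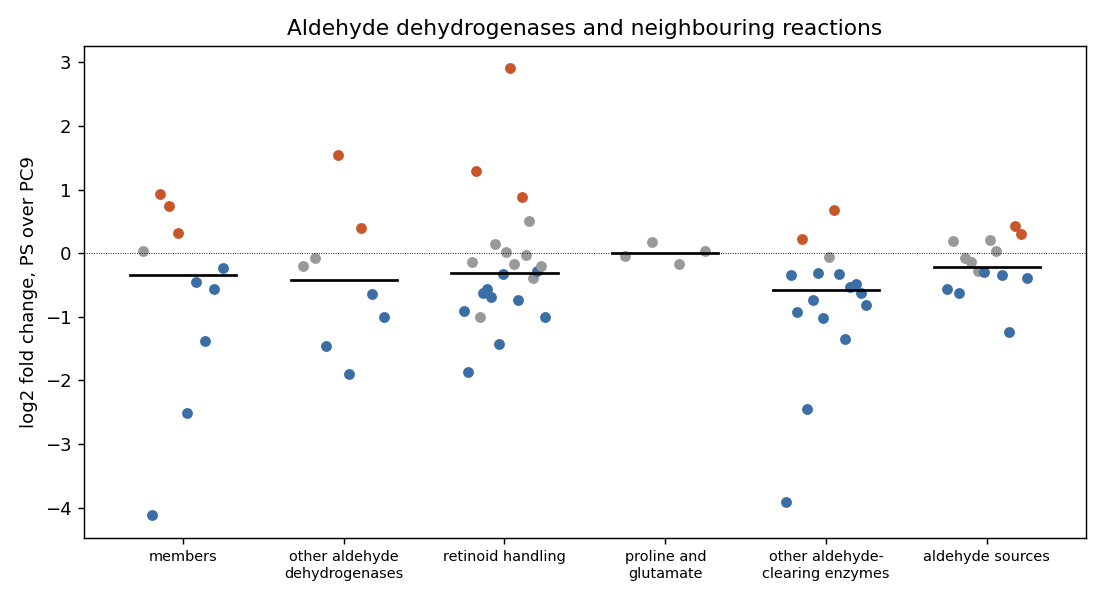
Log2 fold change of PS over PC9 for every tested gene of 6 lists, with 1 point per gene (orange higher, blue lower, grey not past an adjusted p of 0.01) and the list's median as a line. The median is -0.34 for the 10 members and -0.57 for the other aldehyde-clearing enzymes, and the 4 proline and glutamate genes lie close to 0.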

How the data were processed

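RNA-seq of 6 libraries, 3 PC9 and 3 PS, was used, with conditions and replicate numbers from the sample labels. The authors prepared poly-A libraries, converted and trimmed reads with bases2fastq 1.1.0, checked their quality with fastp 0.23.3 and pseudoaligned them with kallisto 0.46.1 to Ensembl 96 transcripts of GRCh38. They deposited estimated counts per gene symbol and per transcript as whole, unnormalized numbers. How strand was treated is not given in the sources used here. Libraries of another laboratory that the study also drew on were not used here.

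Genes passing filterByExpr were normalized with TMM and tested with glmQLFit and glmQLFTest of edgeR 4.0.16 in R 4.3.3 without a block, with a limit of 0.01 on the Benjamini-Hochberg adjusted p-value. The standard error is the log2 fold change divided by the square root of F. Transcripts were tested alike and their usage with diffSpliceDGE. Of 188753 transcripts 167067, with 95.8% of the counts, were matched to GENCODE 44, which gave coordinates, lengths and coding lengths. Per-length levels use matched transcripts. Precision is set by the spread between 3 libraries, from 29476725 to 34893782 counts each.

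The members and lists were chosen with earlier results of these data known. Named genes are all 19 aldehyde dehydrogenases and, of each other list, up to 3 rises and 3 falls past the limit with the largest change. Alternatives were DESeq2 1.42.0, limma 3.58.1 (voom), other scalings and filters, counts summed from transcripts, a replicate block, a limit of 0.05, shortened lengths and each library left out. The procedures were tested on simulated data. The values of 1 listed gene are not reported here. Figures were drawn with matplotlib 3.10.9.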

Additional observations from a re-analysis of the deposited data

How the results depend on the processing

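Over 15 alternatives other than the limit of 0.05, the 9 members past the limit kept their direction and stayed past it in every one, and so did the 6 other aldehyde dehydrogenases that passed. Among the values of named genes, ALDH18A1 changed sign with upper-quartile normalization (-0.011) and with library size only (-0.021), and ALDH1A2 without PC9 replicate 1 (0.077, with single libraries left out from -0.16 to 0.077). In none of these settings did either gene pass the limit. The proline and glutamate list, with 0 calls, had 1 lower with upper-quartile normalization, library size only or DESeq2. At a limit of 0.05 it had 2, 1 higher and 1 lower. With single libraries left out it had between 0 and 1, 1 lower without PC9 replicate 1 and 1 higher without PC9 replicate 2. The number of calls among the other lists stayed within 1.5 times of the values given. Over all genes it ran from 7054 to 9931. ALDH1A3's share of the member sum in PS cells was 48.1% with 200 bases taken off each length, against 47.4%.

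The labels do not say whether replicate numbers pair the samples, and correlations from so few libraries cannot decide it. Those of same-numbered libraries' deviations were 0.124, 0.0236 and 0.0215. Those of differently numbered libraries ran from -0.117 to 0.0971, and PS replicate 3 correlated best with PC9 replicate 2 (0.0971). With a replicate block 8671 genes were called, 9 of the 10 members, 2 of the proline and glutamate list (1 higher, 1 lower), and 7 member transcripts in place of 14. The adjusted p of ALDH3A1 transcript usage ran from 0.0156 to 0.163 over the alternatives.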
